A study of Mus musculus with 3 samples.

Results

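Colony-stimulating factor 1 (Csf1), interleukin 34 (Il34), the receptor they share (Csf1r), granulocyte-macrophage colony-stimulating factor (Csf2) and the 2 chains of its receptor (Csf2ra and Csf2rb) were examined in single cells of mouse glioblastoma. These 6 genes were taken by name, and all 6 were found among the 31744 genes with at least 1 unique molecular identifier (UMI, a tag that counts 1 captured RNA molecule) in the deposited table. Tumors came from mice of mixed background with a conditional transgene for wild-type human EGFR, loss of both Cdkn2a alleles and a conditional luciferase reporter, in which adult animals received a Cre lentivirus by injection into the striatum, so every group shared these alleles and no tumor-free brain was among the samples used here. Viable cells were sorted by surface CD45, the pan-leukocyte phosphatase encoded by Ptprc, into CD45+ and CD45- fractions and sequenced by inDrop, a droplet method that reads the 3' end of transcripts. The annotation gave 1 tumor sample for each of an early, a medium and a late stage (annotated as large), each with 4 technical libraries per sort, 24 in all over 3 sequencing runs. A stage is therefore 1 sample: no test was made between stages, and stage and tumor cannot be told apart. The early sample was a pool of a pair of animals or tumors, as the methods describe.

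CSF1R is a receptor tyrosine kinase of the mononuclear phagocyte lineage on which microglia depend for survival. It has 2 ligands, CSF1 and IL-34, which are unrelated in sequence, and in the healthy brain IL-34 comes largely from neurons and CSF1 largely from glia. GM-CSF, the product of Csf2, is a cytokine made mainly by activated lymphocytes and some stromal cells, and it acts through a ligand-specific alpha chain, CSF2RA, and a signalling beta chain, CSF2RB, which also serves interleukin 3 and interleukin 5.

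Of 20811 deposited cells, 17781 passed the filters and the removal of called doublets, 11185 from the CD45+ and 6596 from the CD45- sort. Libraries held 17 to 1751 cells and 62320 to 4226043 UMIs. Of 18335 cell barcodes, 2117 occurred in 2 or more libraries. This total alone does not show mixing, since it includes barcodes shared by libraries of other stages or sorts. Pairs of libraries of the same stage and sort shared up to 162 barcodes with a median of 20, against up to 26 with a median of 5 for other pairs. Results were therefore also computed with a barcode shared within a stage and sort counted once, and every call on the 6 genes stayed as it was. The sort label held in the RNA: Ptprc was at 250, 239 and 227 CPM (the gene's UMIs scaled to 1e6 UMIs of the group) in CD45+ cells and at 15.9, 11.1 and 3.59 CPM in CD45- cells, with stages in the order early, medium, late here and in all such triples. The CD45- sort still held 389 cells (5.90%) of the immune classes, 346 of them microglia-like, and 10732 of the CD45+ cells lay in these classes, in which the other 2 unnamed clusters were counted.

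Cells were grouped into 49 clusters from genes other than the 6 members and the pathway genes named here, and clusters were given a cell class, written "-like", from fixed marker lists. The clustering and naming rules were settled after the data had been seen. Levels of single clusters are given over both sorts. A total of 5 clusters took no class. In 3 of these the human EGFR transcript reached at least 1000 CPM, and they are called the unnamed human EGFR clusters. The glioma or oligodendrocyte progenitor (OPC)-like class is mixed: its 169 early CD45- cells held no human EGFR UMI, while the class reached 2037 CPM at the medium and 2584 CPM at the late stage.

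On GRCm38 (GENCODE vM21), Csf1 lies on the minus strand of chromosome 3 (chr3:107741048-107760469), Il34 on the minus strand of chromosome 8 (chr8:110741829-110805924) and Csf2 on the minus strand of chromosome 11 (chr11:54247271-54249667). Csf2ra is on the minus strand of chromosome 19 (chr19:61223957-61228429) and Csf2rb on the plus strand of chromosome 15 (chr15:78325752-78353847), beside its close paralog Csf2rb2 (chr15:78282507-78305721). Since transcript-level assignment can split reads between such near-identical copies, the values of Csf2rb are uncertain to that extent. The promoters of Csf1, the ligand found in both sorts, and of Csf2ra, the member that differed most between macrophages and microglia, are shown for their sequence context, from 250 bases before to 50 bases after the RefSeq start (GRCm38.p6, minus strand of each chromosome, chr3:107760420-107760719 and chr19:61228369-61228668), with GAGGAA in capitals, a purine-rich motif with the GGAA core that ETS factors such as PU.1 bind.
Csf1 promoter: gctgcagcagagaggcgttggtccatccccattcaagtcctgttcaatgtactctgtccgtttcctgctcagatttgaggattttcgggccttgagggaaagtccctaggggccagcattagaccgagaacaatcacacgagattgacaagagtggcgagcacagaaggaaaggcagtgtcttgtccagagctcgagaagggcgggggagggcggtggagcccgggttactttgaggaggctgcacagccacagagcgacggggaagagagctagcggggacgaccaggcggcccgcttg
Csf2ra promoter: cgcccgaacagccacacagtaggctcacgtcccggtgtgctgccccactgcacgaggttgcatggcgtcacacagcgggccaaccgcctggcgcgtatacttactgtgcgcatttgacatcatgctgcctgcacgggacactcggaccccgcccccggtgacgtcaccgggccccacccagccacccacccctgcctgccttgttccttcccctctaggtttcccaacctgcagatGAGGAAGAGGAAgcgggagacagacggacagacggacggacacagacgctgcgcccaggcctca
The Csf2ra window held GAGGAA 2 times side by side shortly before the start, and the Csf1 window did not hold these letters on either strand. The Csf2 window, which is not shown, did not hold them either. The promoter reference held no window for Il34, Csf1r or Csf2rb. Among 32851 mouse promoter windows of this length 28.3% held the motif on either strand and 4.82% held it at least 2 times, so these matches are a description of the sequence only.

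The first comparison asked which side of the CD45 sort holds the ligands and which the receptors. Csf1r, both GM-CSF receptor chains, Csf2 and, by a smaller margin, Csf1 were higher in CD45+ cells, while Il34 was higher in CD45- cells. All 6 genes passed the threshold, 5 higher and 1 lower in CD45+ cells, in a comparison in which 46.1% of 19488 genes tested did so, 20.3% higher and 25.7% lower. Csf2 entered the test only through its CD45+ counts, so its place in this tally adds nothing to those counts. Sums over a sort do not separate fewer cells of a type from less RNA per cell. Differences here and below are log2 values after the scaling of the test between sums (TMM). CPM levels carry no such scaling, so a difference need not match the ratio of the levels.

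Csf1r was at 4627, 1890 and 2879 CPM in CD45+ cells and at 386, 162 and 60.8 CPM in the CD45- cells. The groups did not overlap, and the difference was 4.57 on the log2 scale (SE 0.51, n = 3 tumor samples, adjusted p = 0.000418, edgeR quasi-likelihood test with Benjamini-Hochberg adjustment). Of the CD45- Csf1r UMIs, 82.9% lay in the 346 microglia-like cells, 5.25% of that sort. Csf2ra was at 51.7, 131 and 95.3 CPM against 8.64, 18.1 and 12.9 CPM, a difference of 3.14 (SE 0.21, adjusted p = 9.29e-05 by edgeR). Csf2rb was at 69.6, 88.7 and 130 CPM against 6.17, 5.49 and 2.36 CPM, a difference of 4.74 (SE 0.46, adjusted p = 0.000326 by edgeR). In each of the 3 receptors every CD45+ sum was above every CD45- sum, and the order held in 9 of 9 pairs of one sequencing run and stage. How common such a gap is among all genes was not counted, and the pairs are technical splits of the 3 tumor samples.

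Csf1, the macrophage growth factor, differed far less between the sorts. It was at 79.3, 80.2 and 94.6 CPM in CD45+ cells (84.7 ± 8.58, SD, n = 3) and at 46.9, 66.9 and 48.9 CPM in CD45- cells (54.3 ± 11.02), with a difference of 1.02 (SE 0.21, adjusted p = 0.00543 by edgeR). The sums did not overlap, and before TMM scaling the ratio of the summed levels was 1.56. Il34, the second ligand, was at 0.278, 1.85 and 1.67 CPM in CD45+ cells and at 2.84, 6.86 and 33.8 CPM in CD45- cells, and the difference was -2.74 (SE 0.54, adjusted p = 0.00518 by edgeR). The late CD45- sum stood above the rest, and without the late sample the difference was -1.995 (adjusted p = 0.0379 by edgeR). Csf2 was rare: 113 UMIs in the CD45+ and 2 UMIs in the CD45- sort, or 3.33, 7.19 and 1.30 CPM against 0.123, 0.152 and 0 CPM, a ratio of 55.0 over the summed UMIs (95% counting interval 14.9 to 460). Its CD45- sums held 1, 1 and 0 UMIs, so Csf2 met the count filter of the test only through the CD45+ sums. The fitted difference of 5.57 (SE 0.64, adjusted p = 0.000432 by edgeR) therefore adds nothing to these counts.

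**Figure D1:**
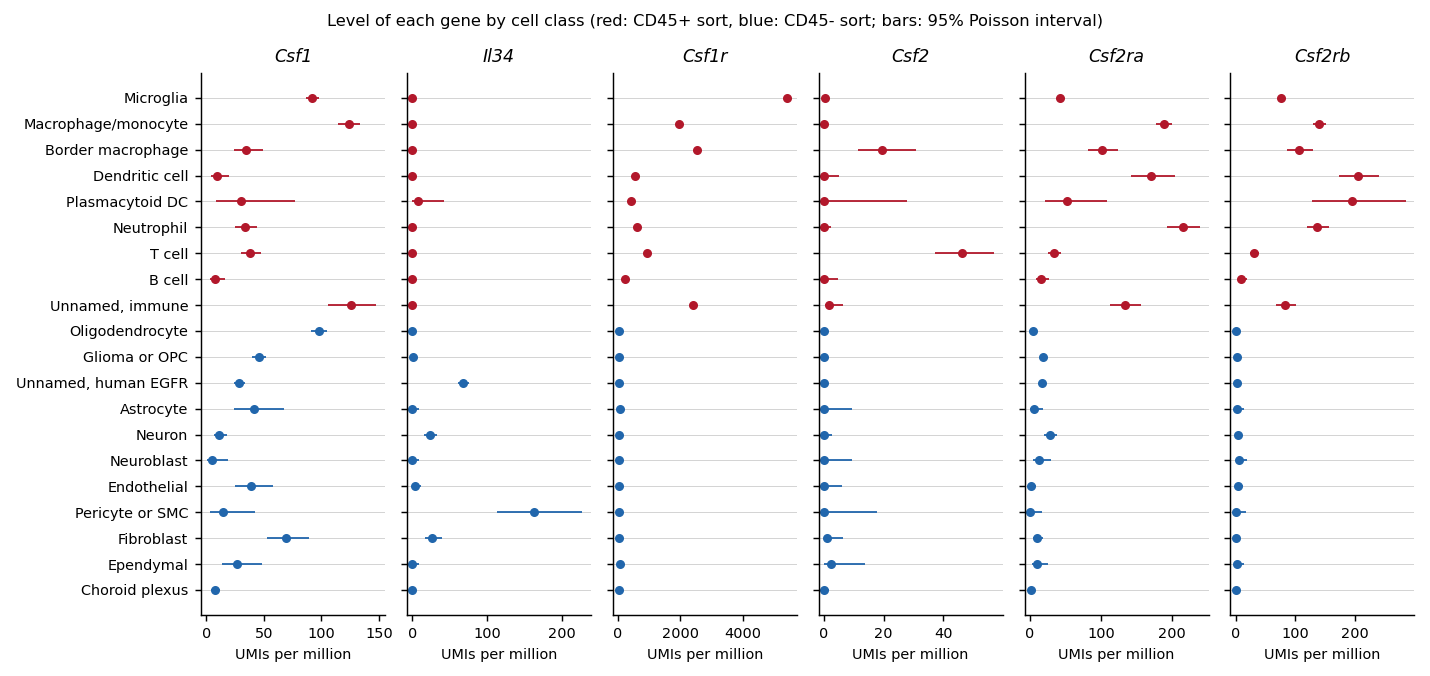
Level of each of the 6 genes by cell class, in CPM on the horizontal axis, with red points for the CD45+ and blue points for the CD45- sort and bars for the 95% Poisson counting interval of the summed UMIs. Csf1r stood highest in microglia-like cells at 5426 CPM in the CD45+ sort, Il34 in CD45- pericyte or smooth muscle-like and unnamed human EGFR cells, and Csf2 in T cell-like cells.

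Csf1 had a broad source. In the CD45- sort the oligodendrocyte-like cells, the myelin-forming glia, held 768 of 1337 Csf1 UMIs, or 57.4% (95% Clopper-Pearson interval 54.7 to 60.1%, counting error only, as in all intervals given here), with 41.4% of the cells. Their share was 73.4%, 58.1% and 45.2% in the 3 tumor samples, with 50.5%, 41.0% and 30.8% of the cells. The glioma or OPC-like class held 17.4% and the unnamed human EGFR clusters 10.4%. In the CD45+ sort the microglia-like class held 51.0% of 2146 Csf1 UMIs with 52.5% of the cells, and the macrophage or monocyte-like class 30.9% with 18.9% of the cells. The microglia-like share was 84.3% when each cell was classed by its own marker UMIs, so the division between these classes depended on how cells were classed. That classing takes the marker list with the most UMIs in a cell, without scaling for how abundant each list is. It made 1730 CD45+ cells of the medium sample microglia-like, against 894 by cluster. The division also depended on the tumor sample. Microglia-like cells held 87.7% of the early, 27.8% of the medium and 24.6% of the late Csf1 UMIs, with 3987 of 5091, 894 of 3983 and 989 of 2111 cells. Macrophage or monocyte-like cells held 5.02%, 36.3% and 66.2%, with 3.71%, 32.2% and 30.3% of the cells. By level pooled over the tumor samples, Csf1 was at 126 CPM in the other unnamed clusters of the CD45+ sort, at 124 CPM in macrophage or monocyte-like, 97.6 CPM in CD45- oligodendrocyte-like and 92.2 CPM in microglia-like cells, and the counting intervals of the last pair overlapped. This order was not stable. In the medium sample microglia-like cells were at 130, oligodendrocyte-like cells at 116 and macrophage or monocyte-like cells at 96.0 CPM, and with cells classed by their own marker UMIs the macrophage or monocyte-like level was 39.4 CPM and the microglia-like level 113 CPM. Fibroblast-like cells were at 68.9 CPM, astrocyte-like cells, the other main glia, at 41.3 CPM, T cell-like cells at 38.0 CPM and B cell-like cells at 7.65 CPM. A Csf1 UMI was seen in 16.3% of the oligodendrocyte-like cells (median 2477 UMIs a cell) and in 7.56% after thinning each cell to 1000 UMIs, against 3.16% and 0.264% of choroid plexus epithelial-like cells (median 4814 UMIs).

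The oligodendrocyte-like and the glioma or OPC-like cells of the CD45- sort, the 2 large classes of the oligodendrocyte lineage, were compared within the tumor samples. Csf1 was higher in the oligodendrocyte-like cells. It was at 76.1, 116 and 116 CPM there and at 31.5, 51.7 and 44.5 CPM in the glioma or OPC-like cells, without overlap. The difference was 1.83 on the log2 scale (SE 0.23), or 3.56-fold after TMM scaling (adjusted p = 0.00029 by edgeR). The CPM levels lie closer together, as they carry no TMM factors. Without these factors the median log2 difference of all genes moved by -0.58. Oligodendrocyte-like cells were higher in 9 of 9 pairs of one run and stage, which are splits of the same 3 tumor samples. The early glioma or OPC-like arms held 1, 0 and 13 Csf1 UMIs in 33, 55 and 81 cells of runs 1, 2 and 3. Of 3 members that could be tested, Csf1 was higher and Csf2ra lower, beside 35.9% of 14010 genes called, 18.1% higher and 17.8% lower. Csf2ra was at 3.27, 5.01 and 7.96 CPM against 29.2, 21.7 and 14.4 CPM, a difference of -1.38 (SE 0.47, adjusted p = 0.048 by edgeR) that was not called in 7 of 13 alternatives. Csf1r, at 22.4, 13.2 and 18.9 CPM against 45.0, 20.6 and 31.2 CPM, did not pass (-0.21, SE 0.27, adjusted p = 0.601 by edgeR). These sums overlapped. Among the 4 oligodendrocyte-like clusters Csf1 ranged from 76.5 CPM to 129 CPM, the highest in a cluster of 738 cells led by Klk6, Slc25a27 and Hapln2. In that cluster it was at 102, 167 and 134 CPM. The 4 glioma or OPC-like clusters ran from 14.6 to 70.2 CPM, and the highest, led by Gpr17, Tnr and Shisal1 (60.7 to 80.7 CPM), overlapped the interval of the lowest oligodendrocyte-like cluster. Their make-up changed with the tumor sample: over both sorts, 71.0% of the early glioma or OPC-like cells came from a cluster led by Susd5, C1ql2 and Kcnk3, while the Gpr17 cluster held 5.91% of the early, 42.2% of the medium and 36.8% of the late cells. The part of this in the class difference was not tested.

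Il34 UMIs lay in few classes, and 358 of the 426 in the CD45- sort came from the late sample. Pooled over the tumor samples, the unnamed human EGFR clusters held 330 of 426 CD45- Il34 UMIs, or 77.5% (73.2 to 81.3%), with 10.1% of the cells and 19.2% of the UMIs of that sort. They held none of 23 Il34 UMIs in the early sample, 17 of 45 (37.8%) in the medium and 313 of 358 (87.4%) in the late one, with 0.147%, 8.23% and 23.3% of the cells (4, 132 and 529 cells), so the pooled share was mainly that of the late sample. In the early sample pericyte or smooth muscle-like cells held 11 and neuron-like cells 7 of the UMIs, and in the medium sample fibroblast-like cells held 13. In all, neuron-like and pericyte or smooth muscle-like cells held 34 UMIs each, and fibroblast-like cells 23. By level pooled over the tumor samples the order was different. Pericyte or smooth muscle-like cells, which wrap small vessels, were highest at 163 CPM (113 to 227 CPM), followed by the unnamed human EGFR clusters at 68.2 CPM (61.0 to 76.0 CPM). Fibroblast-like cells at 26.8 CPM and neuron-like cells at 23.6 CPM followed with intervals that overlapped. In pericyte or smooth muscle-like cells Il34 was at 142, 59.3 and 296 CPM, from 11, 4 and 19 UMIs. The pooled order did not hold in the medium sample, where pericyte or smooth muscle-like cells were at 59.3, neuron-like cells at 53.3, fibroblast-like cells at 44.1 and the unnamed human EGFR clusters at 19.0 CPM, the first 3 from 4 to 13 UMIs each. The fibroblast-like UMIs lay almost wholly in 1 of 2 clusters, led by Aldh1a2, Cyp1b1 and Dcn, at 111 CPM over both sorts against 1.55 CPM in the other.

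Within the unnamed human EGFR clusters Il34 was uneven. Over both sorts, it was at 120 CPM in a cluster of 206 cells led by Tinagl1, Itga8 and Crym. It was at 30.6 CPM in 451 cells led by Npy, Kif26b and Egfl8. In 126 cells led by interferon-response genes it was at 0, and the counting interval reached 6.57 CPM in the medium sample. The Tinagl1 cluster came almost wholly from the late sample, with 200 of its 206 cells, where Il34 was at 124 CPM. The Npy cluster was at 52.2 CPM at the medium and 24.9 CPM at the late stage. In the CD45- sort the 3 clusters together were at 19.0 CPM at the medium and 79.8 CPM at the late stage. The 4 late libraries lay between 67.4 and 94.4 CPM. Oligodendrocyte-like cells held 1 Il34 UMI among 2732 cells, and glioma or OPC-like cells, which carried more human EGFR than the unnamed clusters (2173 against 1328 CPM), held 2 among 1097 cells. An Il34 UMI was seen in 18.0% of the unnamed human EGFR cells at a median depth of 6197 UMIs, in 4.14% after thinning to 1000 UMIs, and in 0.0366% of oligodendrocyte-like cells at a median of 2477 UMIs.

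**Figure D2:**
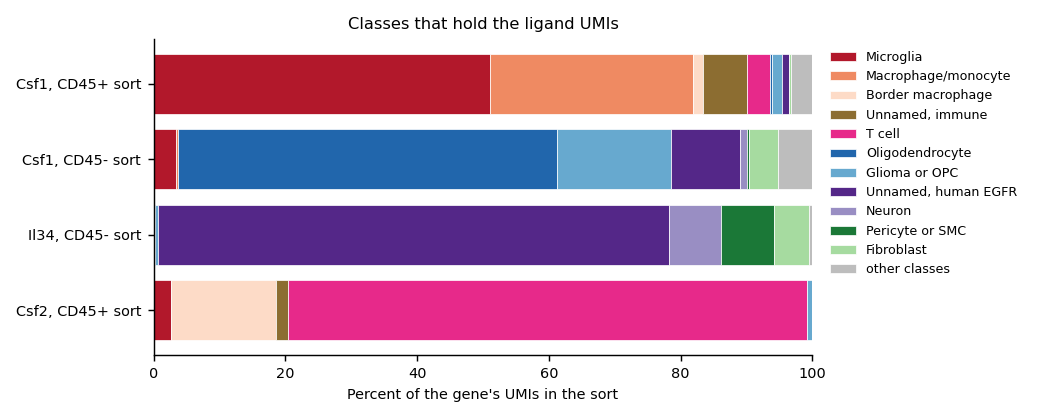
Percent of each ligand's UMIs within a sort, on the horizontal axis, held by each cell class, with 1 stacked bar for each gene and sort. Oligodendrocyte-like cells made up 57.4% of the Csf1 bar and unnamed human EGFR clusters 77.5% of the Il34 bar in the CD45- sort, pooled over tumor samples in which the latter share was 0, 37.8 and 87.4% (early, medium, late).

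**Figure D3:**
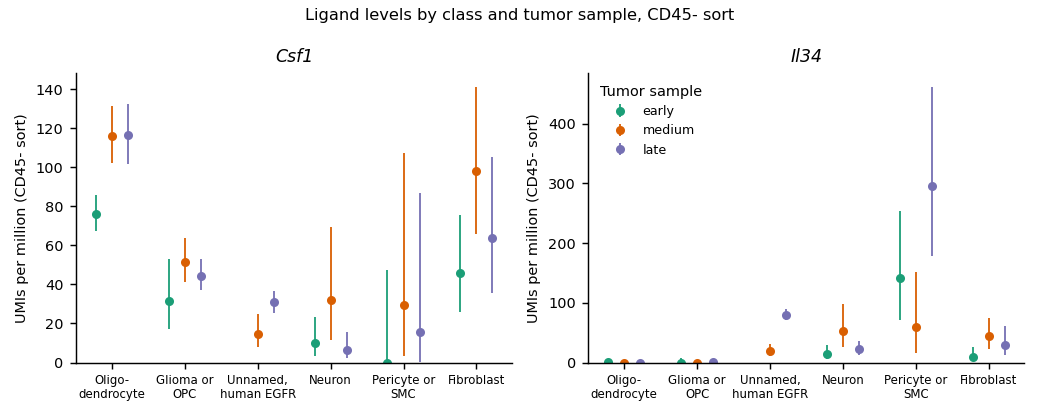
Levels of Csf1 and Il34 in the CD45- sort, in CPM on the vertical axis, by cell class, with 1 point for each tumor sample and bars for the 95% Poisson counting interval. Csf1 in oligodendrocyte-like cells stood above the glioma or OPC-like cells in all 3 tumor samples, and Il34 in the unnamed human EGFR clusters was at 19.0 CPM at the medium and 79.8 CPM at the late stage.

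Immune cells held almost no Il34. The CD45+ sort contained 30 Il34 UMIs, of which 29 lay in cells outside the immune classes. None was found in 5870 microglia-like or 2110 macrophage or monocyte-like cells, and 3 UMIs, the limit set by a count of 0, would be 0.253 and 0.560 CPM.

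The next comparison set the receptors of microglia, the resident macrophages of the brain, beside those of macrophages and monocytes within the CD45+ sort. Csf1r was higher in the microglia-like class, and both GM-CSF receptor chains were lower. Of the 4 members that could be tested, 1 was higher and 2 were lower, beside 28.9% of 12167 genes called, 13% higher and 15.9% lower in microglia-like cells.

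Csf1r was at 5521, 5336 and 5107 CPM in microglia-like cells and at 2137, 1891 and 1978 CPM in the macrophage or monocyte-like cells. The ranges lay far apart and the spread within each class was small (5322 ± 207 against 2002 ± 125 CPM, SD, n = 3). The difference was 1.26 on the log2 scale (SE 0.11), or 2.39-fold after TMM scaling (adjusted p = 1.04e-07 by edgeR), and it had the same direction in 7 of 7 pairs of one run and stage. Left out of these pairs, here and below, was run 1 of the early sample, with 8 macrophage or monocyte-like cells. Run 1 of the late sample, with 15 microglia-like cells, was left out too. Across libraries with at least 50 cells of the class, microglia-like cells ranged from 4934 to 6260 CPM and macrophage or monocyte-like cells from 1767 to 2413 CPM. Over both sorts, each of the 9 microglia-like clusters (4049 to 5917 CPM) was above each of the 5 macrophage or monocyte-like clusters (1328 to 2240 CPM). The lowest of the latter was led by Ly6i, Sirpb1c and Ms4a4c and held Ccr2 and Plac8, genes of recently arrived monocytes. Border or perivascular macrophage-like cells, the resident macrophages of the meninges and vessels, were at 2527 CPM, between the classes.

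**Figure D4:**
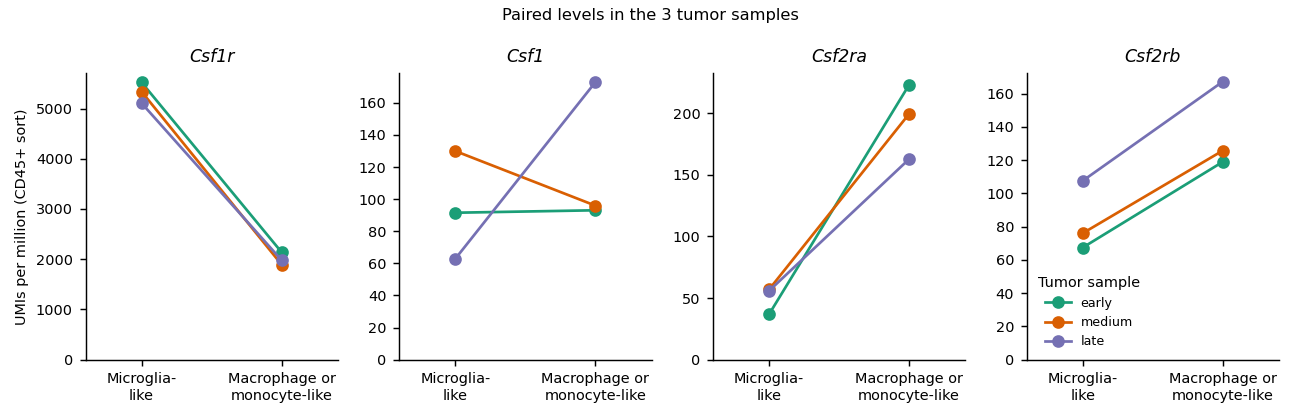
Levels of Csf1r, Csf2ra, Csf2rb and Csf1 in CPM (vertical axes) in the microglia-like and the macrophage or monocyte-like cells of the CD45+ sort, with 1 line for each of the 3 tumor samples. Csf1r fell and both GM-CSF receptor chains rose from microglia-like to macrophage or monocyte-like cells in each tumor sample, and the Csf1 lines did not share a direction.

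Csf2ra, the GM-CSF-specific chain, was at 36.8, 56.9 and 55.8 CPM in microglia-like and at 223, 199 and 163 CPM in macrophage or monocyte-like cells. No sums overlapped. The difference was -2.14 on the log2 scale (SE 0.20), or 4.39-fold lower in the microglia-like cells after TMM scaling (adjusted p = 4.52e-07 by edgeR), in 7 of 7 pairs of one run and stage. Csf2rb, the shared signalling chain, was at 67.5, 76.1 and 108 CPM against 119, 126 and 167 CPM, a difference of -0.88 (SE 0.16, adjusted p = 0.000499 by edgeR), lower in 6 of 7 pairs. In the pairs left out for few cells it was higher in the early sample (63.0 against 40.9 CPM, the latter from 1 UMI). It was lower in the late sample (106 against 142 CPM). Microglia-like clusters ranged from 51.5 to 125 CPM of Csf2rb, overlapping the 102 to 190 CPM of macrophage or monocyte-like clusters. The Csf2ra ranges did not overlap (28.3 to 82.5 and 168 to 214 CPM). The microglia-like cluster highest in Csf2rb, led by Cxcl13, Cd74 and Nr4a3, had 4 microglia markers that passed. It held 1.68%, 27.3% and 3.34% of the microglia-like cells of the 3 tumor samples. With each cell classed by its own marker UMIs in place of its cluster, the Csf2rb difference was -0.46 and was not called (adjusted p = 0.111 by edgeR).

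The 2 classes were not free of each other's markers. The 11 microglia markers summed to 18844 CPM in the microglia-like and 3758 CPM in the macrophage or monocyte-like cells, all 11 detected in both, and the 13 macrophage or monocyte markers summed to 347 and 7538 CPM with 12 and 13 detected. The part of these shares in the differences was not tested. The clusters that made up the classes also changed with the tumor sample: the macrophage or monocyte-like cells of the medium sample were 52.0% from a cluster led by Cxcl9, H2-Eb1 and H2-Aa, while those of the late sample were 64.4% from a cluster led by Spp1, Igf1 and Lpl and 29.2% from one led by Rnase2a, Ear2 and Retnla.

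Csf1r was also counted in cells that are not thought to use it. T cell-like cells were at 937 CPM, with a Csf1r UMI in 36.9% of cells, and B cell-like cells at 226 CPM with 22.3%, against 99.0% in microglia-like and 89.8% in macrophage or monocyte-like cells at like median depths of 1890 to 2731 UMIs. In oligodendrocyte-like cells of the CD45- sort the share was 4.32% at a median of 2477 UMIs. Per 100 UMIs of the microglia marker list, T cell-like cells held 38.2 Csf1r UMIs, B cell-like 38.1, neutrophil-like 31.8 and dendritic cell-like 41.6, beside 28.8 in microglia-like, 51.7 in macrophage or monocyte-like and 109 in border or perivascular macrophage-like cells. The lymphoid values are given as counts in these droplets and not as expression, and the part of free RNA in them was not tested. After thinning to 1000 UMIs the shares were 97.5% in microglia-like, 76.0% in macrophage or monocyte-like, 31.3% in T cell-like and 13.6% in B cell-like cells.

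Csf1 itself did not differ between the classes by the test. It was at 91.6, 130 and 62.9 CPM in microglia-like and at 93.1, 96.0 and 173 CPM in macrophage or monocyte-like cells, with overlapping sums (-0.51 on the log2 scale, SE 0.42, adjusted p = 0.446 by edgeR). The result depended on the tumor sample. Without the medium sample the difference was -0.97 (adjusted p = 0.0212 by edgeR) and without the late sample 0.09 (adjusted p = 0.831 by edgeR). With cells classed by their own marker UMIs it was 1.54 (adjusted p = 0.00885 by edgeR), in the opposite direction. That classing does not scale the lists, and it made 1730 cells of the medium sample microglia-like, against 894 by cluster. Why the direction changed was not tested.

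Clusters within each class spanned a wider range than the classes did. Among microglia-like clusters Csf1 ran from 23.5 CPM in 953 cells led by the heat-shock genes Hspa1b and Hspa1a with P2ry12 to 181 CPM in 846 cells led by the inflammatory genes Cxcl10, Tnf and Dusp2, in which the tumor samples were at 182, 184 and 171 CPM. A second Tnf-led cluster was at 140 CPM. Among macrophage or monocyte-like clusters Csf1 ran from 22.3 CPM in the Ly6i cluster to 237 CPM in the Spp1 cluster, which was at 185, 242 and 243 CPM in the 3 tumor samples. An unnamed cluster of 132 cells led by Cxcl13 and Cst7, nearly all from the medium sample, was at 254 CPM, and a neutrophil-like cluster of 89 cells led by Clec4d and Trem1 at 205 CPM, against 10.4 to 17.3 CPM in the other neutrophil-like clusters. These are descriptions of clusters drawn from the same cells, with no test.

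**Figure D5:**
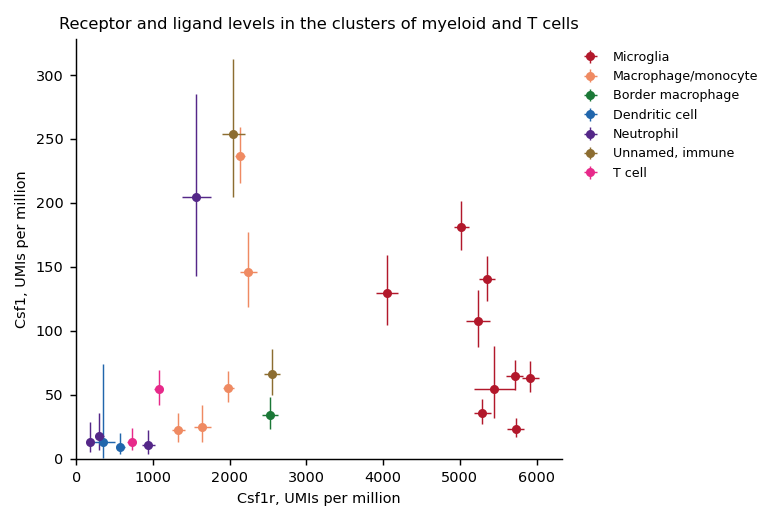
Csf1r (horizontal axis) against Csf1 (vertical axis), both in CPM, with 1 point for each cluster of myeloid and T cells colored by class. The 9 microglia-like clusters lie to the right, at 4049 to 5917 CPM of Csf1r, while Csf1 spans 23.5 to 181 CPM among them.

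GM-CSF transcripts came from few cells. T cell-like cells held 89 of 113 CD45+ Csf2 UMIs, or 78.8% (70.1 to 85.9%), with 7.75% of the cells, and border or perivascular macrophage-like cells held 18, or 15.9%. The T cell-like share was 17 of 36 UMIs early, 65 of 70 at the medium stage and 7 of 7 late. Macrophage or monocyte-like cells held none among 2110 cells and microglia-like cells 3 UMIs among 5870. The level in T cell-like cells was 46.3 CPM, at 24.97 CPM early, 67.7 CPM at the medium stage and 24.8 CPM late, and it was 32.4 CPM without 1 medium library of the third run. The stage values rested on single libraries: among libraries with at least 50 T cell-like cells Csf2 ran from 0 to 91.4 CPM early, from 13.6 to 171 CPM at the medium stage and from 0 to 44.7 CPM late. Of the 17 early UMIs, 15 lay in 1 library, and all 7 late UMIs lay in 2 cells of 1 library, so that the late value was 0 without it. No order of the stages is read from these values. A Csf2 UMI was seen in 21 of 867 T cell-like cells (2.42%) and in none of 242 B cell-like cells, which by the exact interval allows up to 1.51% of cells with a captured UMI and sets no limit on cells that express the gene, at median depths of 1890 and 2731 UMIs. Of the 89 UMIs, 76 lay in 12 cells with at least 3 each, and the highest cell held 14. The cluster led by Trac, Cd28 and Cd4 was at 70.4 CPM (82 UMIs), while the cluster led by Cd8a, Gzmb and Cd8b1, which also held the natural killer genes Nkg7 and Klrd1, was at 9.21 CPM (7 UMIs). The 18 UMIs of border or perivascular macrophage-like cells lay in 7 cells, none with a T cell marker. Each held a marker of its own class, which is no check, since the class was named from those markers.

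The GM-CSF receptor chains were spread over the myeloid classes. Pooled over the tumor samples, Csf2ra was highest in neutrophil-like cells at 215 CPM (193 to 239 CPM), followed by macrophage or monocyte-like cells at 188 CPM (177 to 200 CPM) and dendritic cell-like cells at 171 CPM (142 to 203 CPM), with overlapping intervals. The other unnamed clusters were at 133 CPM, border or perivascular macrophage-like cells at 102 CPM, plasmacytoid dendritic cell-like cells at 52.5 CPM (21.1 to 108 CPM) and microglia-like cells at 42.8 CPM. The neutrophil-like level rested mostly on the medium sample, with 338 of 467 cells: it was at 155, 239 and 76.8 CPM in the 3 tumor samples, against 223, 199 and 163 CPM in macrophage or monocyte-like cells, so the order of these classes was the opposite in the early sample, where their counting intervals overlapped, and in the late one. Macrophage or monocyte-like cells held 43.0% of the CD45+ Csf2ra UMIs with 18.9% of the cells. Pooled in the same way, Csf2rb was highest in dendritic cell-like cells at 205 CPM (173 to 241 CPM) and plasmacytoid dendritic cell-like cells at 195 CPM (127 to 286 CPM), then in macrophage or monocyte-like cells at 140 CPM, neutrophil-like cells at 137 CPM, border or perivascular macrophage-like cells at 106 CPM, the other unnamed clusters at 83.1 CPM and microglia-like cells at 75.4 CPM. This order was not stable either, since neutrophil-like cells were at 174, 111 and 330 CPM and dendritic cell-like cells at 121, 238 and 233 CPM in the 3 tumor samples. A Csf2ra UMI was seen in 29.9% of macrophage or monocyte-like, 6.76% of microglia-like and 4.13% of B cell-like cells, and after thinning to 1000 UMIs in 16.2%, 3.97% and 1.24%. In the CD45- sort, Csf2ra was at 28.4 CPM in neuron-like, 18.2 CPM in glioma or OPC-like and 17.4 CPM in unnamed human EGFR cells, and Csf2rb at 2.17 CPM in the glioma or OPC-like cells.

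Most of the listed partners of these genes were higher in the CD45+ sort. Of 41 listed pathway genes, 38 could be tested between the sorts, and 30 were higher and 1 was lower in CD45+ cells, with a median difference of 2.27 beside -0.05 over all genes tested. Of all 19488 genes tested, 20.3% were higher and 25.7% lower. The lists hold many myeloid genes and were chosen with earlier results of these data known. Their counts across a CD45 sort are a description and not a test of signalling. All 9 listed genes of CSF1 receptor signalling were higher, led by Ptpn6 (5.27), the phosphatase SHP-1, the lipid phosphatase Inpp5d (4.74), Plcg2 (4.69), the kinase subunits Pik3cd (4.63) and Pik3cg (4.62) and the adaptor Sh3bp2 (2.41). All 8 myeloid transcription factors were higher, among them Spi1 (5.56), which encodes PU.1, Ikzf1 (5.00), Irf8 (4.52), Cebpa (3.96) and Runx1 (3.89). In the JAK-STAT5 list 6 of 9 were higher, namely the kinase Pim1 (2.94), the feedback genes Cish (1.74) and Socs1 (1.39), and Stat5a (1.36), Stat5b (1.24) and Stat3 (1.03). Trem2 (5.06) and its adaptor Tyrobp (5.50) were higher, and Ptprz1 (-3.29), a second receptor of IL-34 that neural progenitors and glioma cells carry, was the 1 gene lower, at 12.5, 79.3 and 33.6 CPM against 235, 609 and 473 CPM. Of the related receptors Csf3r (4.68), Csf2rb2 (3.95) and Il5ra (1.43), and of the KIT and FLT3 list Flt3l (2.14) and Flt3 (1.52), were higher. Il3, Il5 and Csf3 could not be tested.

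Between microglia-like cells and the macrophage or monocyte-like class 34 of the 41 genes could be tested, and 9 were higher and 7 lower (median 0.23, beside 0.04 over all genes). Of all 12167 genes tested, 13% were higher and 15.9% lower in microglia-like cells. Among the transcription factors Maf (1.62), Ikzf1 (0.86) and Cebpa (0.46) were higher and Cebpb (-0.63) was lower in microglia-like cells. Of CSF1 receptor signalling, Pik3cg (1.23) and Inpp5d (0.94) were higher, and 7 of 9 did not pass. Of the JAK-STAT5 list, Socs1 (-2.03), Pim1 (-1.23) and Cish (-1.19), which are known to be induced by GM-CSF among other cytokines, were lower and Socs3 (0.48) was higher. Il3ra (-2.39) and Csf2rb2 (-1.01) were lower and Csf3r (0.57) was higher, and Trem2 (0.45) was higher while Tyrobp (-0.75) was lower. Ptprc, which is not on the lists, was at 197, 195 and 225 CPM against 385, 236 and 208 CPM, with overlapping sums and the late sample in the other direction (-0.53, adjusted p = 0.0374 by edgeR).

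Between oligodendrocyte-like and glioma or OPC-like cells 20 could be tested, and 0 were higher and 9 lower (median -1.07, beside -0.003 over all genes). Of all 14010 genes tested, 18.1% were higher and 17.8% lower in oligodendrocyte-like cells. Ptprz1 was lower by the largest margin (-7.04), at 9.82, 9.10 and 10.9 CPM against 3327, 1802 and 1195 CPM. Socs3 (-5.86), Irf8 (-4.54), Socs1 (-3.92), Sdc1 (-3.72), Socs2 (-1.24), Kit (-1.24) and Gab2 (-1.23) were also lower.

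The genes whose levels most resembled each member were listed over 45 sums of a tumor sample, sort and class with at least 50 cells, among 14657 genes, as a description of sums that share libraries. For Csf1r they were Trem2, Fcgr1, Cx3cr1, Tlr13 and Fcgr3 (Pearson r 0.97 to 0.96), and for Csf2rb they included Clec4a2, Ccl6, Myo1f and Ptafr (0.94 to 0.93). For Csf2ra they were Rab32, Lrrc25, Igsf6, Fgr and Man2b1 (0.87 to 0.83), and for Il34 Col6a1, Fras1, Rbms3, Crym and Col6a2 (0.87 to 0.83). Csf1 had no close match, with Fam3a at 0.76 and Cd81, Mavs, Slc44a2 and Sptlc1 at 0.65 to 0.62. Csf2 had too few UMIs to be listed. Among the members Csf1r and Csf2rb were at r = 0.86, Csf2ra and Csf2rb at 0.80, and Csf1 and Il34 at 0.000905.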

How the data were processed

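The authors deposited UMI counts per gene and cell for 20811 cells, made from inDrop reads with RapMap in bcbio-nextgen against a mouse GRCm38 transcriptome with added transgenes (mm10 in the labels); the study also describes removal of ambient RNA and doublets, and whether this preceded the table is not given in the sources used here. Sort, stage, run and library came from the deposited annotation. The members and gene lists were chosen with earlier results of these data known.

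Cells with at least 500 UMIs and 500 genes and at most 20% mitochondrial UMIs were kept (17894). Scrublet called 113 of 17786 cells as doublets (0.635%), leaving 17781, which were clustered in Python 3.11.15 with scanpy 1.11.5 (2000 variable genes, 40 components, 20 neighbours, leidenalg 0.10.2). The clustering settings were set after the data were seen. Leiden resolutions 1.0, 2.0 and 3.0 were run and 3.0 was used because it parted dendritic cells from monocytes. A total of 3 naming rules were tried. Under the final rule a cluster took the class with the most passing markers (2-fold, 10% of cells, at least 3), unless another class led its 10 top genes. The same class was given to 93.8% of cells at resolution 1.0 and 97.1% at 2.0, to 99.4% under naming by most markers alone (1 cluster differed), and to 76.7% under naming by mean fold (8 clusters differed). The split of unnamed clusters at 1000 CPM of human EGFR was also set after the values were seen. Member levels were first read after these choices.

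UMIs were summed per tumor sample and sort or class, and each difference was tested with the quasi-likelihood test of edgeR 4.0.16 in R 4.3.3 (TMM, filterByExpr, robust, tumor sample as block, Benjamini-Hochberg adjustment over all genes tested, threshold 0.05). Both arms of a pair come from the same tumor sample, and their deviations correlated at 0.26 to 0.37 for the sorts, 0.32 to 0.53 for the microglia and macrophage classes and -0.005 to 0.19 for the oligodendrocyte lineage. On simulated counts, 94, 88 and 93 of 100 genes changed 4-fold were called in the sort, microglia and oligodendrocyte comparisons, and 38, 27 and 24 of 100 changed 2-fold. False calls numbered 3, 1 and 4. The simulation gave each gene the same expected share in every tumor sample, with a dispersion of 0.05 for all genes. The real tumor samples differ, so these rates are not the power in these data. Levels carry Poisson and shares Clopper-Pearson 95% intervals (SciPy 1.17.1), for counting error only, and DESeq2 1.42.0 was an alternative. Pathway genes named are those past the threshold, at most 6 a list by fold. Some genes and alleles that these rules would name are not reported here.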

Additional observations from a re-analysis of the deposited data

Results flagged for a closer look

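Of 29 groups of 4 technical libraries examined, 1 held a library far from the rest: Csf2rb in 1 late CD45+ library of 17 cells was at 64.2 CPM, from 4 UMIs, against 129 to 133 CPM in the other 3, with a gap of 0.937 of the range, above the 95% critical value of the Dixon test. By chance about 1 group in 20 is flagged.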

How the results depend on the processing

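Each sort difference kept its direction and call in all 54 alternatives. Leaving out 1 tumor sample gave 0.88 to 1.18 for Csf1, -3.67 to -1.995 for Il34, 3.94 to 5.00 for Csf1r, 5.31 to 6.02 for Csf2, 3.06 to 3.31 for Csf2ra and 4.12 to 5.31 for Csf2rb (log2). The Csf2 calls and range cannot show how stable its difference is, since the CD45- sort held 2 Csf2 UMIs in all. In the microglia comparison the Csf1r and Csf2ra calls held in every alternative, at 1.20 to 1.28 and -2.36 to -1.84 without 1 tumor sample. Csf1 ran from -0.97 to 0.087 without 1 tumor sample and was 1.54 with classes set per cell, and Csf2rb was then -0.46. In the oligodendrocyte comparison Csf1 held at 1.72 to 1.88, Csf1r turned to 0.37 with classes per cell, and Csf2ra was no longer called with DESeq2 (-1.47), without the top 5% of doublet scores (-1.23), at resolution 1.0 and 2.0 (both -1.33), with classes per cell (-0.98), or without the early (-0.97) or the medium sample (-1.33), while it was kept without the late sample (-2.08). The causes were not tested.

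Without the replicate block the 13 tested differences kept their calls (for example 1.00 for Csf1 and -3.13 for Il34 between the sorts). Without TMM factors the median of all genes moved by -0.36, 0.16 and -0.58 in the sort, microglia and oligodendrocyte comparisons, and the share of called genes that were higher moved from 44.1 to 28.6%, 45.1 to 60.8% and 50.5 to 23.2%. Counts of called genes moved by over 1.5 times in the microglia comparison (1587 higher and 1934 lower) to 805 and 1288 with DESeq2, 920 and 1204 without the medium sample, and 1157 and 1096 with classes per cell, and in the oligodendrocyte comparison (2535 and 2488) to 1421 and 4710 without TMM factors and 1564 and 1965 without the medium sample. The members' calls stayed without TMM factors, with Csf1 at 0.66 between the sorts and 1.27 between the oligodendrocyte lineage classes.

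Levels moved by more than their counting interval in 38 alternatives and by less in 150. For Csf1 the oligodendrocyte-like level was 88.9 CPM as a mean over cells, 122 in run 1 and 81.2 in run 3. The microglia-like level was 127, 103 and 80.2 in runs 1, 2 and 3 and 113 with classes per cell. The macrophage or monocyte-like level was 102 as a mean over cells, 189 in run 1, 108 in run 3, 39.4 with classes per cell and 114 to 129 without 1 library. Il34 in the unnamed human EGFR clusters was 48.0 as a mean over cells, 82.6 in run 1, 48.2 in run 2 and 60.7 to 72.1 without 1 library. Csf1r in microglia-like cells was 5472 as a mean over cells, 5485 at resolution 1.0, 5707, 5520 and 5324 in runs 1, 2 and 3, 4685 with classes per cell and 5332 to 5462 without 1 library. In macrophage or monocyte-like cells it was 1899 without the top 5% of doublet scores, 1885 and 1852 at resolution 1.0 and 2.0, 2018 and 1827 in runs 2 and 3, and 1489 with classes per cell. Csf2 in T cell-like cells was 57.3 as a mean over cells, 23.7 and 76.1 in runs 2 and 3, 62.4 with classes per cell and 32.4 to 56.1 without 1 library. In macrophage or monocyte-like cells Csf2ra was 210.2 in run 1, and Csf2rb 109.6 and 159 in runs 1 and 3 and 127 with classes per cell.

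With classes per cell the UMI shares were 66.4% (Csf1, oligodendrocyte-like), 84.3% (Csf1, microglia-like), 89.1% (Csf1r, microglia-like), 54.0% (Csf2, T cell-like), 34.9% (Csf2ra, macrophage or monocyte-like) and 57.7% (Csf2rb, microglia-like). At resolution 1.0 and 2.0 they were 48.5% and 48.8% for Csf1 and 76.1% and 76.5% for Csf1r in microglia-like cells and 53.9% and 48.5% for Csf2ra in macrophage or monocyte-like cells. The Il34 share was 72.1% with every deposited cell. Thinning to 1000 UMIs moved 5 shares of cells, to 97.5%, 76.0% (Csf1r, microglia-like and macrophage or monocyte-like), 16.2% (Csf2ra, macrophage or monocyte-like), 7.56% (Csf1, oligodendrocyte-like) and 4.14% (Il34). The single counting of shared barcodes and the 2 other resolutions were chosen after seeing the data.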
